A study of Mus musculus with 16 samples.

Results

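The promoters of 7 genes of cholesterol synthesis and its control were followed through the chromatin contacts listed for mouse liver at 4 times of the day. The genes were Hmgcs1, Sqle and Cyp51, which encode enzymes of the pathway, Srebf1 and Srebf2, which encode the SREBP transcription factors, and Insig1 and Insig2, which encode the proteins that hold SREBP back. A promoter was taken as the HindIII restriction fragment that holds the annotated start of the gene (GENCODE vM1, mouse build mm9), and its contacts were all listed pairs of fragments with an end there. Of the 7 genes, 6 lay on such a bait fragment, and these 6 baits of 18165 took part in 79 of the 247177 distinct pairs. Hmgcs1 has no start in this annotation. Its RefSeq promoter of 300 bases matched 2 unplaced contigs and 0 chromosomes of the reference, and the lists hold 0 fragments on unplaced contigs, so no value is given for Hmgcs1.

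The study followed chromatin contacts of circadian gene promoters with Promoter Capture Hi-C, in which ligated pairs of neighbouring chromatin fragments are enriched for those with a promoter at an end. Livers came from wild-type male C57BL/6 mice labelled as 8 weeks old, the age at which the methods begin the light cycle, kept on equal spans of light and dark with free access to food, and taken at Zeitgeber times ZT0 (lights on), ZT6, ZT12 (lights off) and ZT18. At each time 3 pools of 2 livers were made, pool A was run on 2 lanes, and the 16 sequenced samples were merged by timepoint before contacts were called. All groups share genotype, sex, strain and feeding, and differ in the time of collection. Each timepoint therefore has 1 list and no replicates, so that differences between timepoints have no replicate error and were not tested. A pair enters a list with a CHiCAGO score of at least 5, where the score rises with the evidence that a pair was read more often than its distance and its bait predict. A pair absent from a list has no listed score there, which is not a measured low contact. The lists hold no RNA levels and no read counts, so liver marker genes could not be checked and the depth behind each score is unknown. Whole livers were used, so a strong contact in few cells and a weak contact in many cannot be told apart.

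Cells make cholesterol from acetyl-CoA through the mevalonate pathway, squalene and lanosterol, and the liver is a main site of this synthesis. When sterols are low, SCAP escorts the SREBP precursors from the endoplasmic reticulum to the Golgi, where proteases release the active factors. These bind sterol regulatory elements, usually beside sites for NF-Y, which binds CCAAT boxes, and raise the genes of synthesis and uptake. When sterols are plentiful, the INSIG proteins retain SCAP and SREBP in the endoplasmic reticulum. In liver Srebf1 mainly drives fatty acid synthesis and Srebf2 cholesterol synthesis, and both pathways follow feeding, which mice do mostly in the dark.

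The sequences at the captured promoters are shown first, because all contacts below start from the fragments that carry them. Motifs were searched on both strands in the 250 bases before each gene start: the sterol regulatory element (SRE, TCACNCCAC), the E-box CACGTG bound by clock and bHLH factors, SREBP among them, the CCAAT box, and the REV-ERB/ROR element ANTNGGTCA, where N is any base. The REV-ERB/ROR string allows any base before GGTCA, so a match to its letters need not be the element itself. No match overlapped another. The promoters of Sqle, Srebf2, Insig1 and Insig2 are printed 5′ to 3′ in the direction of the gene, read from the mm9 genome, with motif matches in capitals (ATTGG is a CCAAT box on the opposite strand).
Sqle promoter, chr15:59146382-59146631, plus strand: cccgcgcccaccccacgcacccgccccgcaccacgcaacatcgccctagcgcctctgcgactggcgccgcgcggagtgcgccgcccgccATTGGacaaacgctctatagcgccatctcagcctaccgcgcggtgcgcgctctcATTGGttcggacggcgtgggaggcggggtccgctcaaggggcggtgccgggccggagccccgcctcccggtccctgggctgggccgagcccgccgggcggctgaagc
Srebf2 promoter, chr15:81977446-81977695, plus strand: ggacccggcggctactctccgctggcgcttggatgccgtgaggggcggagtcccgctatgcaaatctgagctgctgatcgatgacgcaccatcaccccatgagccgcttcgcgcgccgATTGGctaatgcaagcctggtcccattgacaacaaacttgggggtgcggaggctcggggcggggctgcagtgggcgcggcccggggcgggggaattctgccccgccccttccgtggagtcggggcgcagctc
Insig1 promoter, chr5:28397702-28397951, plus strand: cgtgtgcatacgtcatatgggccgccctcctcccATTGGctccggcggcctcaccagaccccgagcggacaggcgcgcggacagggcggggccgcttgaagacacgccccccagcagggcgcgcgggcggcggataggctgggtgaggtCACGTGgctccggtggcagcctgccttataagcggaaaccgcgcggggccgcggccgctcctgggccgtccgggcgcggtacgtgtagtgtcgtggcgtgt
Insig2 promoter, chr1:123229167-123229416, minus strand: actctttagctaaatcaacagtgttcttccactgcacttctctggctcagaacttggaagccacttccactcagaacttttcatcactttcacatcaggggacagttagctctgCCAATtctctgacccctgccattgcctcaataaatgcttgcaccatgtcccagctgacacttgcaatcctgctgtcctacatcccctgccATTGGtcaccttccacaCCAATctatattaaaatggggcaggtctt

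The CCAAT box was found in 5 of the 6 promoters, against 33.4% of 21740 promoters on baits. Insig2 held 3 matches, which begin at -136, -46 and -29 from the gene start. Sqle held 2, at -161 and -107. Insig1 held 1 at -216 and was the member with an E-box, at -101, a motif present in 6.43% of all promoters. Cyp51 had no match to any of the 4 motifs in these letters. The SRE as spelled here was in 0 of the 6 promoters and in 0.984% of all promoters, and the REV-ERB/ROR element was in 0 of 6 and in 1.84%. With 500 bases the Srebf1 promoter gained an SRE, at -286, and an E-box, at -331, and these windows are shown with 20 bases on each side since Srebf1 is itself a gene of the SREBP system.
Srebf1 upstream SRE, chr11:60036341-60036389, minus strand: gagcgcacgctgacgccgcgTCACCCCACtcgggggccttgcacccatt
Srebf1 upstream E-box, chr11:60036389-60036434, minus strand: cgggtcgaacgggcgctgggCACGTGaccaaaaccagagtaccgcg
In 500 bases the SRE was present in 1.90% and the E-box in 10.3% of all promoters, and the CCAAT box was still in 5 of the 6 members but in 51.5% of all promoters. These matches are letters in a window and say nothing of binding.

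Together the 6 promoters had 41 listed contacts in each of the ZT0, ZT6 and ZT18 lists and 44 in that of ZT12, while the lists as a whole hold between 146262 and 154775 pairs. The total was thus alike in the 4 lists at this minimum score. At a score of at least 10 it was 6, 11, 11 and 11, and without Sqle it was 27, 29, 36 and 33, from ZT0 to ZT18. Sqle went from 14 contacts at ZT0 and 12 at ZT6 to 8 at ZT12 and 8 at ZT18. Cyp51 went the other way, with 8, 9, 10 and 11 contacts at ZT0, ZT6, ZT12 and ZT18. Srebf1 had 3, 2, 6 and 3 contacts, highest at ZT12. Srebf2 had 5, 7, 7 and 6, Insig1 had 4, 7, 6 and 7, and Insig2 had 7, 4, 7 and 6. The 2 enzyme promoters thus had opposite orders over the 4 lists, and the regulators shared no common order. None of these differences has a replicate behind it. Where 4 values follow each other without a label they run from ZT0 to ZT18. Timepoints are given as the lists are labelled. A summary given with the study orders the totals of the lists differently, and in that order the lists labelled ZT6, ZT12 and ZT18 would be those of ZT18, ZT6 and ZT12, so each time of day given here is that of the label.

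**Figure D1:**
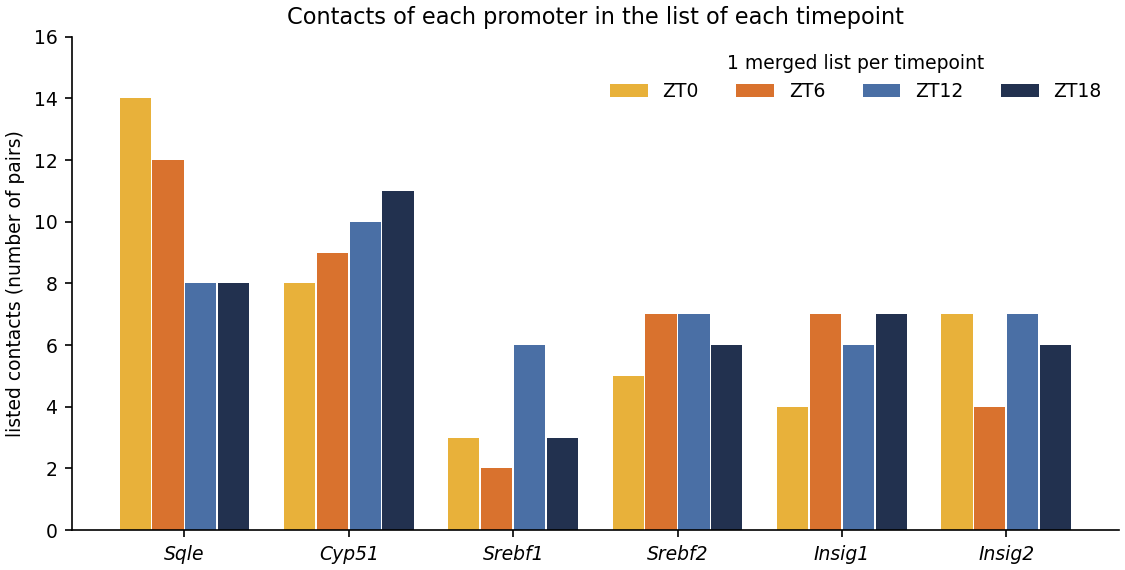
Number of listed contacts (vertical axis) of each member promoter in the merged list of each timepoint (bars, 1 list per bar, no replicates and no error bars). Sqle falls from 14 at ZT0 to 8 at ZT12 and ZT18, Cyp51 goes from 8 to 11, and Srebf1 is highest at ZT12 with 6.

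Of the 79 distinct contacts, 22 were listed at all 4 timepoints, which is 27.8% (95% Wilson interval 19.2 to 38.6%) against 32.5% of all distinct pairs. At 1 timepoint only there were 39, or 49.4% (38.6 to 60.2%), against 35.2% of all pairs. Sqle alone gave 19 of these 39, and without Sqle the share was 37.7% (25.9 to 51.2%). The other 5 promoters thus lay near the share of all pairs. By timepoint, 11 member contacts were listed at ZT0 only, against 8.20% of all pairs, 10 at ZT6 only, against 9.95%, 11 at ZT12 only, against 8.56%, and 7 at ZT18 only, against 8.50%. Of the 79 these are 13.9%, 12.7%, 13.9% and 8.86%. When an other end within 10 kb was accepted as the same contact, 58 of 79 (73.4%) were found at all 4 timepoints, against 68.5% of all bait contacts, and 9 (11.4%) at 1 timepoint, against 11.5%. Most contacts absent from a list thus had a listed neighbour fragment of the same promoter. The intervals cover counting error only, and fragments next to each other are not independent.

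Both ends were baits in 23 contacts, which is 29.1% (20.3 to 39.9%) against 15.4% of all pairs. These shares are not alike, since the members were picked by their baits and a pair with baits at both ends can enter through either. Counted once for each of its baits, the 247177 pairs give 285235 contacts. The 38058 pairs with baits at both ends then count 2 times each. The share over baits is thus well above 15.4% and lies inside the interval of the members, so no excess is shown. Cyp51 gave 9 of the 23, Sqle 5 and Srebf1 5, while Insig2 had 2 and Srebf2 and Insig1 had 1 each. Of the other ends, 25 held a gene start of any kind, 16 overlapped an exon, 18 lay in introns and 20 between genes. A score of at least 10 at any timepoint was reached by 18 contacts, or 22.8% (14.9 to 33.2%), against 21.5% of all pairs. The median distance from bait midpoint to contact midpoint was 213 kb (order-statistic interval 173 to 301 kb, 78 pairs within a chromosome) against 162 kb for all pairs. This too rested on Sqle, without which the median was 141 kb (73.4 to 194 kb).

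**Figure D2:**
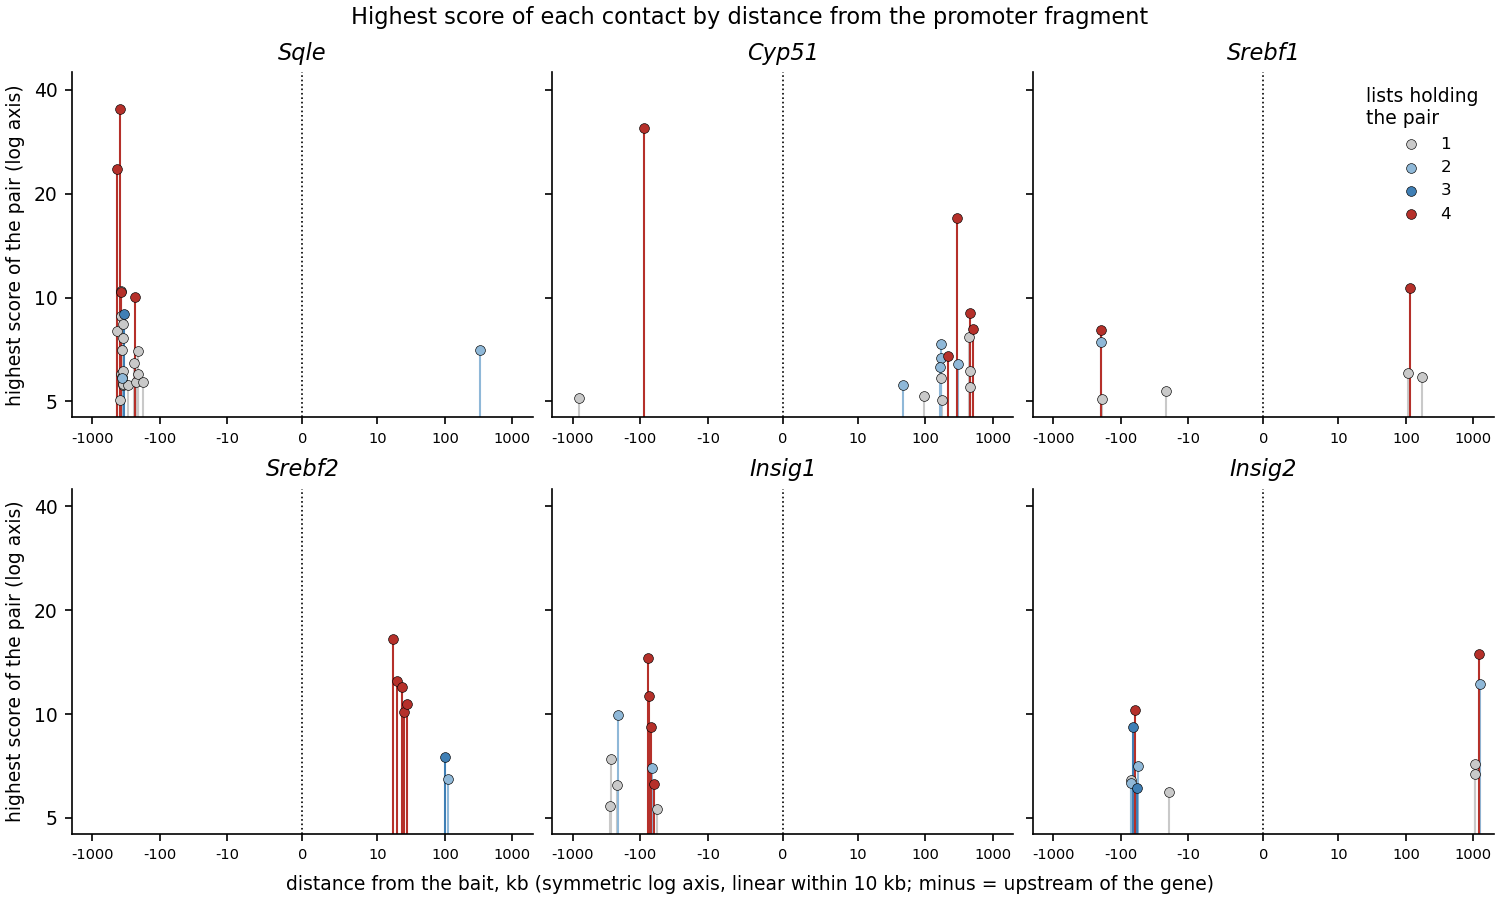
Highest score of each contact over the 4 lists (vertical, log axis) by distance from the bait midpoint in kb (horizontal, symmetric log axis), a panel for each promoter, coloured by the number of lists that hold the pair. Sqle and Insig1 reach almost all contacts upstream and Srebf2 all 7 downstream, and the contact of Cyp51 to another chromosome is not drawn.

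Sqle encodes squalene epoxidase, which makes the first oxygen-dependent step of sterol synthesis and is a control point of the pathway. Its start lies at chr15:59146632 on the plus strand, on a bait of 3989 bp that holds no other gene start. With 26 distinct contacts it exceeded 80.6% of all baits, whose median was 9 with quartiles at 4 and 21. Baits here are fragments that a list names as bait, so captured fragments without a listed pair are left out. Of the 26, 25 lay upstream, between 177 and 436 kb away. The strongest reached the fragment chr15:58760370-58767028, 384 kb upstream, which holds the starts of Ndufb9, a subunit of respiratory complex I, and Tatdn1, which encodes a putative nuclease. It scored 19.9, 35.28, 22.84 and 27.22 at ZT0, ZT6, ZT12 and ZT18. This pair had the highest score of any member contact and, with a difference of 15.38, the widest range among those listed at all 4 timepoints. The next reached Rnf139 at 427 kb, which encodes a ubiquitin ligase of the endoplasmic reticulum with a sterol-sensing domain, and scored 23.63, 16.05, 16.25 and 21.69. At ZT0 the Rnf139 score was above the Ndufb9 score, and at the other 3 timepoints below it.

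The Sqle promoter also contacted the start of Mtss1, an actin-binding protein, at 232 kb, with 7.5, 7.6, 10.02 and 8.63 at ZT0, ZT6, ZT12 and ZT18. Among contacts with no promoter at the other end, the strongest listed throughout was an exonic Mtss1 fragment at 372 kb, with 8.69, 10.37, 7.85 and 6.41. Ndufb9 exon fragments at 377 and 376 kb scored 10.46 and 8.87 at ZT6 and were in no other list. A single contact lay downstream, 335 kb away, at the start of Trib1, a pseudokinase linked to plasma lipid levels, with 7.05 at ZT0 and 5.63 at ZT18. It was absent from the lists of ZT6 and ZT12. One pair, 360 kb upstream in an Mtss1 exon, was listed at ZT0 (5.69) and ZT6 (5.83) and at neither later timepoint.

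Around the Ndufb9 start the contacts of Sqle formed a run of 16 fragments over 54.3 kb, in which gaps were at most 10 kb, reaching into the 3′ part of Mtss1. Here 9, 8, 4 and 4 fragments were listed at ZT0, ZT6, ZT12 and ZT18. In all of the lists there were 2. Over all its contacts Sqle had 14, 12, 8 and 8. The bait most like Sqle in its contacts carried Gm5045 and lay 106 kb away. It shared 16 of the 26 Sqle fragments and had 26 contacts of its own, a Jaccard index of 0.444 over the union of the 4 lists. Motif windows from fragments that Sqle contacted at all 4 timepoints are shown with 20 bases on each side. They are an E-box in the Mtss1 start fragment and a match to the REV-ERB/ROR letters, with T before GGTCA, in the exonic Mtss1 fragment.
Mtss1 start fragment, E-box, chr15:58914768-58914813, plus strand: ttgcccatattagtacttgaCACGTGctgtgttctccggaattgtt
Mtss1 exonic fragment, REV-ERB/ROR element, chr15:58776571-58776619, plus strand: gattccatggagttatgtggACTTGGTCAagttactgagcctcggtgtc

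Cyp51 encodes lanosterol demethylase, the first enzyme after the sterol ring system is closed. Its start lies at chr5:4104746 on the minus strand, on a bait of 6401 bp without another gene start. Its 18 contacts exceeded those of 70.3% of the baits with a listed pair. Of these, 15 lay downstream, 2 upstream and 1 on another chromosome. The strongest reached the start of the predicted gene Gm9897, 88.8 kb upstream at chr5:4189508-4193222, and scored 28.23, 30.94, 27.42 and 29.97 at ZT0, ZT6, ZT12 and ZT18. This was among the steadiest of the strong member contacts, since its lowest and highest scores differed by 3.52. Krit1, which encodes a protein of endothelial cell junctions, was contacted at 298 kb with 9.9, 9.6, 6.95 and 17.01. Its score at ZT18 stood above the other 3, and the range of 10.06 was the widest of Cyp51. The start of Gatad1, a zinc finger protein, at 456 kb was also listed at all 4 timepoints and scored 6.4, 9.05, 8.58 and 6.94.

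A run of 5 fragments over 12.5 kb at the start and in the introns of Akap9, a scaffold of protein kinase A at the Golgi and centrosome, had 1 listed contact with Cyp51 in each of the ZT0 and ZT6 lists and 3 in each of the ZT12 and ZT18 lists. No single one of its fragments was listed at all 4 timepoints. Between this run and Cyp51, 1 more Akap9 fragment was listed at ZT12 and ZT18. An exonic Akap9 fragment at 94.9 kb was listed at ZT18 only, with 5.19. In all, 3 Cyp51 contacts, each in Akap9, were listed at ZT12 and ZT18 and at neither ZT0 nor ZT6, with scores of 7.34 and 6.57, 6.29 and 5.53, and 5.55 and 5.56. These were all the member contacts with that pattern, 3 of 79, against 3.50% of all pairs. The pair between chromosomes, listed at ZT6 with 5.56, joined Cyp51 to chr11:3039562-3056799, which holds the starts of Gm11399 and Gm11400 and an exon of Sfi1. That fragment had 43 pairs in the lists, and 41 of them were between chromosomes, so Cyp51 was 1 of many partners. An intronic Akap9 fragment at 173 kb scored 6.68 at ZT6 and 6.25 at ZT18. The non-promoter contact of Cyp51 listed throughout lay at 214 kb between genes and scored 5.83, 6.62, 6.78 and 6.21. The bait most like Cyp51 was that of Akap9, with 5 shared fragments and a Jaccard index of 0.227. The E-box in the Gm9897 fragment is shown because this was the strongest Cyp51 contact.
Gm9897 fragment, E-box, chr5:4191867-4191912, plus strand: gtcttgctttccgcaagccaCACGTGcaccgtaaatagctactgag

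Srebf1 encodes SREBP-1, of which the liver makes mostly the form that drives fatty acid synthesis. The annotated gene start lies at chr11:60036083 on the minus strand, on a small bait of 856 bp. Whether the liver form begins at this start was not determined. Srebf1 had 7 distinct contacts, and 5 of them ended on another bait. Rai1, a chromatin regulator whose loss disturbs sleep and body weight, was contacted 116 kb downstream with 9.93, 10.37, 10.68 and 8.79 at ZT0, ZT6, ZT12 and ZT18. Atpaf2, an assembly factor of the mitochondrial ATP synthase, was contacted 196 kb upstream with 5.85, 6.22, 8.04 and 8.05. Its neighbour fragment with the start of 4933439F18Rik scored 5.78 at ZT0 and 7.42 at ZT12. Among these, ZT12 held the highest Rai1 score, and Atpaf2 scored higher at ZT12 and ZT18 than at ZT0 and ZT6.

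At ZT12 the list held 6 Srebf1 contacts, of which 3 were in no other list: an intronic Rai1 fragment with the start of 4930412M03Rik (6.04), the Gm12265 bait at 21.2 kb (5.37) and an Atpaf2 exon (5.07). All 3 scores were at or below 6.04, near the minimum of the lists. At ZT18 the Srebf1 promoter was listed with the start of Pemt, which makes phosphatidylcholine by methylation in liver, at 176 kb and 5.89. The bait most like Srebf1 carried Lrrc48 and Tom1l2, 130 kb away. All 4 of its contacts were shared with Srebf1, a Jaccard index of 0.571.

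Srebf2 encodes SREBP-2, the main activator of cholesterol synthesis genes, and its start lies at chr15:81977696 on the plus strand. The bait measured 29366 bp and also holds the start of Ccdc134, which encodes a secreted protein, so a contact may belong to either start. Every contact of Srebf2 was in more than 1 list, and 5 of the 7 were in all of them. These 5 were adjoining fragments inside intron 1 of Srebf2, which spans 22.2 kb. They covered 13.3 kb (chr15:81981439-81994768), from 3.74 to 17.1 kb after the gene start, and began 1.72 kb from the end of the bait. The nearest scored 11.03, 11.36, 16.47 and 14.98 at ZT0, ZT6, ZT12 and ZT18. The next 2 scored 7.18, 8.55, 12.49 and 10.3, and 7.21, 7.96, 11.95 and 9.43. All 3 were highest at ZT12 and lowest at ZT0.

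A fragment of 422 bp at 24.6 kb scored 7.08, 9.03, 10.16 and 8.54, and the farthest 7.43, 8.51, 10.52 and 10.66. The score was highest at ZT12 in 4 of the 5, against 25.6% of all pairs listed at all 4 timepoints. Both dark-phase scores, ZT12 and ZT18, stood above both of ZT0 and ZT6 in 4 of the 5, against 20.2% of such pairs. Over all 22 member contacts listed at all 4 timepoints, 7 were highest at ZT12 and 8 at ZT18. Of all 80235 such pairs, 20573 and 20901 were. Both dark-phase scores stood above in 6 of the 22, of which Cyp51, Insig1 and Insig2 gave 0, and below in 2. Of the 80235 pairs, 16192 had both above and 12893 both below. The median over the 5 went from 7.21 at ZT0 and 8.55 at ZT6 to 11.9 at ZT12 and 10.3 at ZT18. Adjoining fragments share a bait and a neighbourhood, so these 5 orders are not independent observations. The remaining contacts of Srebf2 reached Cenpm, which encodes a kinetochore protein. The Cenpm start fragment at 112 kb scored 6.49 at ZT6 and 5.48 at ZT12, and an intronic fragment at 102 kb scored 7.52 at ZT6, 7.06 at ZT12 and 5.0 at ZT18. Neither was listed at ZT0. No other bait shared 3 contacted fragments with Srebf2. Within the intron, the fragment at 23.0 kb holds a match to the REV-ERB/ROR letters, with C before GGTCA. The farthest fragment holds an SRE on the opposite strand (capitals).
Srebf2 intron 1, REV-ERB/ROR element, chr15:81987474-81987522, plus strand: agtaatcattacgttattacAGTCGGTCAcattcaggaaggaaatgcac
Srebf2 intron 1, SRE, chr15:81994722-81994770, plus strand: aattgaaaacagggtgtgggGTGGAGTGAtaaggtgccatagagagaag

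**Figure D3:**
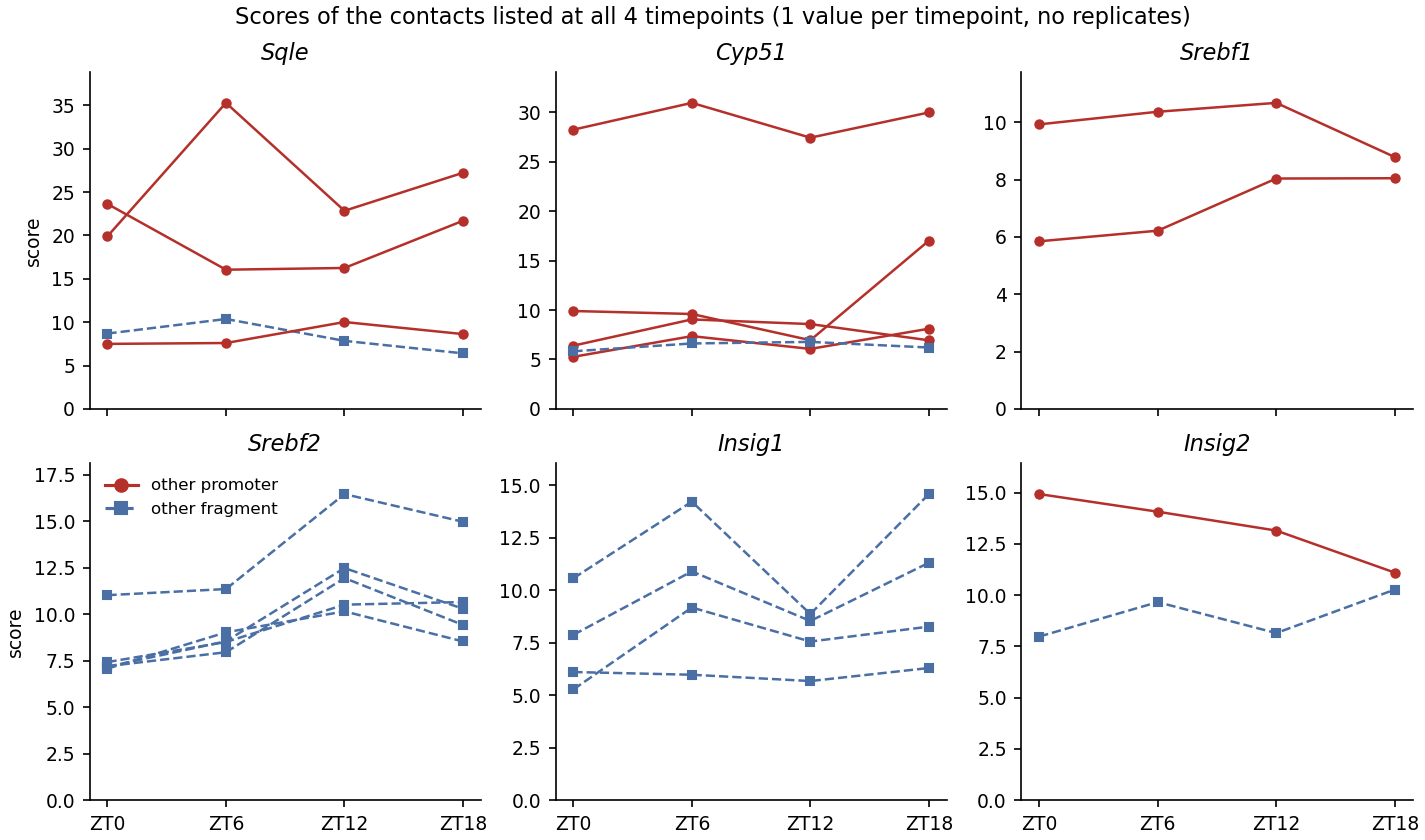
Scores (vertical axis, a scale of its own in each panel) of the 22 member contacts listed at all 4 timepoints, by timepoint, with circles for contacts to another promoter and squares for other fragments, 1 value per timepoint and no error. The 5 Srebf2 lines and the 2 Srebf1 lines go up from ZT0 to ZT12, while those of Sqle, Cyp51 and Insig1 cross or peak at other times.

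Insig1 encodes the INSIG protein that is itself induced by SREBP, and its start lies at chr5:28397952 on the plus strand, on a bait of 14727 bp shared with Gm16719. All 10 of its contacts lay upstream and 8 of them between genes. They centred on a run of 6 fragments over 21.8 kb (chr5:28319148-28340958), 56.9 to 76.2 kb from the bait, with no gene start. In this run 4, 6, 5 and 4 fragments were listed at ZT0, ZT6, ZT12 and ZT18. In all of the lists there were 4. The farthest, of 785 bp, was the strongest contact of Insig1, with 10.56, 14.21, 8.86 and 14.57 at ZT0, ZT6, ZT12 and ZT18. The next scored 7.87, 10.89, 8.53 and 11.3. Both were higher in the lists labelled ZT6 and ZT18 than in those of ZT0 and ZT12, and in the other order of the lists these would be the dark timepoints ZT18 and ZT12. The fragment at 70.4 kb scored 5.27, 9.17, 7.55 and 8.26, and the one at 63.0 kb 6.1, 5.97, 5.67 and 6.29. The former carries an SRE match, which is shown because the fragment lies between genes and was listed throughout.
Insig1 upstream fragment, SRE, chr5:28324987-28325035, plus strand: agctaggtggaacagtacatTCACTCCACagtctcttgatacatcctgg
Farther out, a fragment between genes at 212 kb scored 9.91 at ZT6 and 5.01 at ZT18. The 1 promoter among the contacts was that of Paxip1, a protein of the DNA damage response, at 279 kb with 5.4 at ZT12. No other bait shared 3 contacted fragments with Insig1.

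Insig2 encodes the second INSIG protein, whose liver transcript is known to fall with insulin. Its start lies at chr1:123229166 on the minus strand, on a bait of 3420 bp. Its strongest contact was also among the longest of the members, 1213 kb downstream at chr1:122011618-122018604, a fragment with the starts of Dbi, the acyl-CoA-binding protein, and 3110009E18Rik. It scored 14.93, 14.07, 13.15 and 11.1 at ZT0, ZT6, ZT12 and ZT18. The score was thus highest at ZT0 and lowest at ZT18. Beyond it, at 1259 kb, the start of Tmem37, a membrane protein related to calcium channel subunits, scored 12.25 at ZT6 and 5.2 at ZT12. On the near side 2 fragments of Steap3, a ferric reductase of the liver, were listed once each, with 6.72 at ZT0 and 7.15 at ZT12. All of these lay more than 1 Mb from Insig2.

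The other 7 contacts of Insig2 lay upstream between genes, and 6 of them formed a run over 18.6 kb, 55.7 to 71.2 kb away (chr1:123281798-123300386). Here 5, 2, 4 and 4 were listed at ZT0, ZT6, ZT12 and ZT18. One was listed throughout, at 61.2 kb, with 7.98, 9.66, 8.15 and 10.27. Its neighbour at 66.6 kb scored 9.19 at ZT0, 5.48 at ZT12 and 5.15 at ZT18 and was not listed at ZT6. The drop of Insig2 to 4 contacts at ZT6 was seen in this run. Both INSIG promoters thus had a run of 6 intergenic fragments upstream, at similar distances. The runs differed in that 4 fragments of Insig1 and 1 of Insig2 were listed at all 4 timepoints. How often other baits have such a run was not counted. The Dbi fragment held an SRE on the opposite strand, an E-box, another E-box and a REV-ERB/ROR element. The SRE and the first E-box are shown here since the contact spans more than 1 Mb.
Dbi fragment, SRE, chr1:122016874-122016922, plus strand: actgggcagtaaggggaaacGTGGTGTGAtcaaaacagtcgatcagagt
Dbi fragment, E-box, chr1:122012444-122012489, plus strand: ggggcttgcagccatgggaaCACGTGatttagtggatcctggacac

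The density of matches was set beside that of all listed fragments as a description. In the 306 kb of sequence contacted by the members, the SRE occurred 14 times, or 4.58 times per 100 kb against 3.42 in all listed fragments, the E-box 14.7 against 14.1, the CCAAT box 132 against 146, and the REV-ERB/ROR element 9.15 against 9.43. In the 83.4 kb contacted at all 4 timepoints the SRE occurred 3 times (3.60 per 100 kb), the E-box 5 times (5.99 per 100 kb) and the REV-ERB/ROR element 5 times (5.99 per 100 kb). For the E-box and the REV-ERB/ROR element these densities were below those of all listed fragments.

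No listed pair joined 2 of the members, and none joined a member to another gene of the pathway. Among 23 other genes of the pathway 20 lay on a bait, with a median of 12.5 distinct contacts, against 10.5 for the 6 members and 9 for all baits with a listed pair. More contacts than the bait median were found for 11 of these 20 and for 4 of the 6 members. The most contacts belonged to Ggps1, which makes geranylgeranyl diphosphate, with 84, on a bait shared with Arid4b. Sc4mol, a methylsterol oxidase, had 58. Scap, which escorts SREBP, had 21 contacts.

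The start fragments of Lss, which closes the sterol ring, and Dhcr7, which makes the last step to cholesterol, were in no list. They have no listed contact, and the lists do not tell whether these fragments were captured. Nsdhl, another sterol enzyme, was met as an other end of 1 pair, since its start fragment was never listed as a bait. Idi1, the isomerase of isopentenyl diphosphate, was singled out after its values were seen: it had 6, 4, 18 and 12 contacts at ZT0, ZT6, ZT12 and ZT18. It had most contacts at ZT12, where Sqle had 8 and Cyp51 10. The members and this list were chosen with earlier results known, and their numbers of contacts describe these lists without a test.

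**Figure D4:**
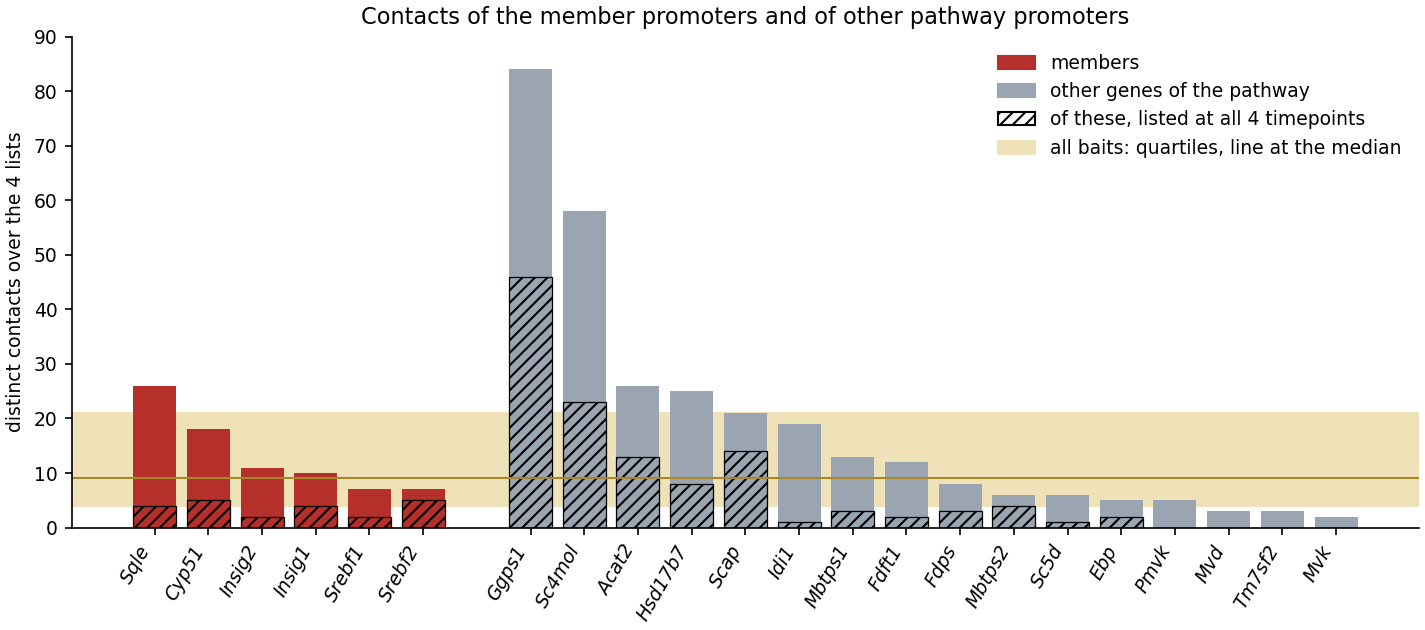
Distinct contacts over the 4 lists (vertical axis, bars) of the 6 member promoters and 16 of the other pathway promoters on baits, with the part listed at all 4 timepoints hatched. The band marks the quartiles of all baits with a listed pair, 4 and 21, and the line their median of 9. Sqle with 26 stands above the band, as do Ggps1 with 84, Sc4mol with 58, Acat2 with 26 and Hsd17b7 with 25.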

How the data were processed

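Promoter Capture Hi-C was made from livers at 4 timepoints, with HindIII fragments and baits at both ends of promoter fragments. Per the study's methods the authors mapped reads with HiCUP and called contacts with CHiCAGO, on build mm9 per the labels. They deposited 1 list per timepoint, with the 3 pools merged, giving 2 fragments and a CHiCAGO score per pair. The deposited scores start at 5 and were used as given. Read depth is not in the lists.

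From these, pairs were taken as unordered and a bait was any fragment that a list names as bait. All 129886 listed fragments outside the mitochondrial genome equal a HindIII fragment of the mm9 reference. Gene starts came from GENCODE vM1. Shares have 95% Wilson intervals and medians order-statistic intervals, tested on simulated lists. With 1 merged list per timepoint no test was possible, and leaving out a pool was not possible. The members, the pathway list and the motifs were chosen with earlier results of these data known. Named contacts were each member's strongest pair, its promoter pairs listed at all 4 timepoints, its 2 best non-promoter pairs, its widest range, pairs listed at both timepoints of light or of dark alone, and the bait of highest Jaccard index with at least 3 shared fragments. Further contacts were named after their values were seen. The alternatives raised the minimum score to 7 or 10, or used other bait assignments, the list without Sqle, a tolerance of 10 kb, another order of the lists, equal list lengths, the gap between fragments and 500 upstream bases. Python 3.11.15, pandas 2.3.3, scipy 1.17.1 and pysam 0.24.0 were used. Some genes of the pathway list and of the contacted fragments are not reported here.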

Additional observations from a re-analysis of the deposited data

How the results depend on the processing

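Of 55 alternative values 38 kept within the counting interval, or within 1.5 times for a count, and 17 moved. With a score of at least 7 the member contacts at ZT0, ZT6, ZT12 and ZT18 numbered 22, 25, 22 and 22, and with at least 10 they numbered 6, 11, 11 and 11. At 10 the share with another promoter was 44.4% and the median distance 103 kb, on 18 contacts, and over all pairs these were 20% and 144 kb. The 20% counts a pair with baits at both ends once. A share counted per bait would be higher and inside the member interval of 24.6 to 66.3%. Without Sqle the counts were 27, 29, 36 and 33, the share at 1 timepoint 37.7% and the median distance 141 kb. With an other end within 10 kb accepted, the share at all 4 timepoints was 73.4% and that at 1 timepoint 11.4%. With 500 upstream bases the SRE was found in 1 member and the E-box in 2. Reading the lists in the order of totals of a summary given with the study moved the 44 contacts from ZT12 to ZT6, put the 12 Sqle contacts of ZT6 at ZT18, and would likewise move the highest Srebf2 scores from ZT12 to ZT6, the higher scores of the leading Insig1 contacts to ZT12 and ZT18 and the Akap9 pairs of Cyp51 to ZT6 and ZT12. No paired analysis was possible because each timepoint has 1 list, merged over its pools. The paper reports total valid pairs per timepoint, but the lists give no read counts behind a score, and depth was not taken into account. Of the 167 listed member scores, 28.1% lay below 6, close to the minimum of the lists. A pair absent at a timepoint may thus have lain just under it.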
